A study of Mus musculus with 9 samples.

Results

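The genes described here encode the machinery by which a cell displays peptides from its endosomes to CD4+ T cells on class II molecules of the major histocompatibility complex. They are 9 genes chosen by symbol: the class II chains H2-Aa, H2-Ab1 and H2-Eb1, the peptide exchange factor subunits H2-DMa and H2-DMb1, the invariant chain Cd74, and the transcriptional regulators Ciita, Rfx5 and Rfxap. All 9 are among the 24187 genes listed in either deposited table and among the 21434 listed in both. They were measured by RNA sequencing in macrophages grown from the bone marrow of C57BL/6 mice, whose age the labels give as postnatal week 8. The marrow cells of all groups were cultured for 6 days with 10 ng/ml M-CSF, the growth factor that drives macrophage differentiation. The cells then received 500 ng/ml lipopolysaccharide (LPS, a component of the outer membrane of Gram-negative bacteria) together with 50 µM NCT503 for 6 h, or 500 ng/ml LPS alone for 6 h, or medium alone for 6 h as the control. NCT503 is a small-molecule inhibitor of phosphoglycerate dehydrogenase, the enzyme that diverts glycolytic carbon into serine synthesis. Each of the 3 groups had 3 libraries, with nothing in the labels on whether they are biological replicates; p-values therefore cover only the spread among these libraries, which may be technical. Cells given NCT503 without LPS are not analysed here.

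As background, an alpha chain and a beta chain form each class II molecule in the endoplasmic reticulum around the invariant chain Cd74, which blocks the groove and directs the complex to endosomes. Proteases there trim Cd74 down to a short remnant, and the DM heterodimer exchanges that remnant for antigenic peptide. Transcription of these genes depends on the X and Y boxes of their promoters, which bind the RFX complex (Rfx5, Rfxap and Rfxank) and NF-Y. The coactivator Ciita does not bind DNA itself and is recruited to that platform, and it is the regulated and usually limiting component. In macrophages class II expression is typically low until interferon-gamma induces Ciita, in part through Irf1. C57BL/6 mice do not express the E alpha chain, so that H2-Eb1 has transcripts but its chain lacks the usual partner.

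Promoter windows were searched for the X and Y boxes. Windows of 300 bases, from 250 before to 50 after the annotated start, were taken from RefSeq (GRCm38.p6) and were held for 5 of the 9 genes, namely H2-Aa, H2-Eb1, H2-DMb1, Rfx5 and H2-DMa. The windows of these genes were searched for the spaced pattern on the strand of the gene only. It was the X box core GNAAC followed 20 to 40 bases later by the Y box GATTGG, which holds the complement of CCAAT. This pattern was written after the sequences had been seen, and the letters of the 2 elements do not overlap. The windows of 4 genes are shown 5′ to 3′ on the strand of the gene, with the matches in capitals, because they set 3 effector genes beside the regulator Rfx5. H2-Aa is chr17:34287774-34288073 (minus strand), H2-Eb1 is chr17:34305617-34305916 (plus), H2-DMb1 is chr17:34152941-34153240 (plus) and Rfx5 is chr3:94953858-94954157 (plus).
H2-Aa: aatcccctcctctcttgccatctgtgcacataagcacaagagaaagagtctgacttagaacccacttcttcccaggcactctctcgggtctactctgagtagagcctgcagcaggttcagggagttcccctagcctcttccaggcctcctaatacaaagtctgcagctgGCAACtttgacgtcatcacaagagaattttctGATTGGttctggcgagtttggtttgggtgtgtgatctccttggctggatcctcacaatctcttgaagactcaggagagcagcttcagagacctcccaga
H2-Eb1: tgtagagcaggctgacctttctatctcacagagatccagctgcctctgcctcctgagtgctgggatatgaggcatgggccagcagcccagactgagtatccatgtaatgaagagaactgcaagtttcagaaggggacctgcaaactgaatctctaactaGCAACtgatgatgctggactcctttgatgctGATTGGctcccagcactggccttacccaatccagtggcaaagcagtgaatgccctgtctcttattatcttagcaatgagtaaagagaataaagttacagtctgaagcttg
H2-DMb1: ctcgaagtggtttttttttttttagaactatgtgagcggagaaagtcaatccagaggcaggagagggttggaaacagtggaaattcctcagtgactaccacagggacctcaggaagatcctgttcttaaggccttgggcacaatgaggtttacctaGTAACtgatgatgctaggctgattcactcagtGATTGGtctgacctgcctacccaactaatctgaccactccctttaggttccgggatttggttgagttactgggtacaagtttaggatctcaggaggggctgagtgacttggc
Rfx5: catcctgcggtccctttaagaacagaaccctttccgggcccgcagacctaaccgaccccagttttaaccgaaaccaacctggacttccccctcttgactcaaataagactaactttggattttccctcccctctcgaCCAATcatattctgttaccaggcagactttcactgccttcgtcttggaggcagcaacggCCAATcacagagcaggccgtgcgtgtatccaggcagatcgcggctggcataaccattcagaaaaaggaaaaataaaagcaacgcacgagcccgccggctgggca
In H2-Aa the X core GCAAC and the Y box were 27 bases apart, with the core beginning 81 bases before the start. In H2-Eb1 they were 26 bases apart and the core began 91 bases before the start. In H2-DMb1 the core read GTAAC, 27 bases from the Y box and 94 bases before the start. Rfx5 had no such match in this window, but held CCAAT at 2 places, which are in capitals. The 2 windows held for H2-DMa, which lie upstream of the start the files give for the gene, had none either. The spaced pattern was found in 383 of 32851 mouse windows of this length (1.17%), and CCAAT in 12289 (37.4%). Both of these counts cover either strand, unlike the search of the genes above for the spaced pattern. A match is a description of the letters and not a measured binding site.

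In the mm10 coordinates of the files, the chain and DM genes lie within the major histocompatibility complex on chromosome 17: H2-DMa at chr17:34135182-34139101 (plus strand), H2-DMb1 at chr17:34153072-34160230 (plus), H2-Ab1 at chr17:34263209-34269418 (plus), H2-Aa at chr17:34282744-34287827 (minus) and H2-Eb1 at chr17:34305877-34316199 (plus). Ciita is at chr16:10488178-10527564 (plus), Rfx5 at chr3:94954075-94961561 (plus), Rfxap at chr3:54803115-54807791 (minus) and Cd74 at chr18:60803848-60812646 (plus). Ciita overlaps Dexi, and Rfx5 overlaps B230398E01Rik, in each case on the opposite strand, while Mir5107 lies within Cd74 on the same strand. H2-DMa has a longer model in the reference annotation, starting at chr17:34119541, whose exons overlap Brd2 on the opposite strand, although its span in the files does not. The strand setting of the counting is not given in the sources used here, so reads of such neighbours may be included. H2-DMb1 and H2-Eb1 have close relatives in H2-DMb2 and H2-Eb2, between which reads could have been split.

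The libraries were of similar depth, with 20295862 to 23599685 reads over the genes of both tables. Size factors, the scaling by which the authors divided each library's reads, differed between groups when recomputed over all 9 libraries: 0.924 to 0.981 with LPS and NCT503, 0.733 to 0.868 with LPS and 1.25 to 1.46 in control. Values below are reads divided by these factors (normalized reads) unless another scale is named. The macrophage markers Csf1r (34515 to 45389 normalized reads), Adgre1 (26966 to 55962) and Cd68 (15064 to 25401) were abundant in all 9 libraries, as the label of the cells implies. Of the dendritic cell genes, Flt3 and Clec9a had at most 9.80 and 9.56 normalized reads in any library, whereas Itgax and Ccr7 averaged 681 and 657 with LPS. Among 14537 genes, 142 were at least 4-fold higher in control library 1 than in both of its group mates, while 49 were higher and 93 lower in LPS with NCT503 library 2, against 0 to 22 higher and 7 to 54 lower in the other 7 libraries. In bulk RNA, fewer cells of a kind and less RNA per cell cannot be told apart.

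Ciita was the only one of the 9 genes that passed the test between LPS with NCT503 and LPS alone, and it was higher with the inhibitor. It had 1161, 953 and 1093 normalized reads with LPS and NCT503, against 384, 462 and 570 with LPS alone. The control libraries had 848, 583 and 573. Every library with NCT503 lay above every library of both other groups, and every LPS library lay below every control library. The rise over LPS alone was 1.19 ± 0.19 on the log2 scale (SE; 95% interval 0.76 to 1.62; 2.29-fold; limma, adjusted p = 0.00076). It held in all 16 other settings tried, with a log2 fold change of 1.05 to 1.44 and an adjusted p of 7e-07 to 0.0063. Against control, Ciita was higher with LPS and NCT503 by 0.70 ± 0.19 (limma, adjusted p = 0.0128), but the adjusted p was 0.0518, 0.0714 and 0.0595 without LPS with NCT503 library 1, control library 2 and control library 3, 0.383 when libraries were scaled by their totals (log2 fold change 0.25) and 0.0608 under quantile normalization (0.50). LPS alone differed from control by -0.49 ± 0.20 (95% interval -0.93 to -0.05), which did not pass (limma, adjusted p = 0.0729). That difference was negative in all 16 other settings (-1.19 to -0.31) and passed in 5 of them, including limma with scaling by totals (-1.19, adjusted p = 0.00243) and edgeR on the recovered reads (-0.56, adjusted p = 0.0476).

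Rfx5, the DNA-binding subunit of the RFX complex, followed another course. It had 421, 290 and 329 normalized reads with LPS and NCT503, and 526, 401 and 510 with LPS alone. The control libraries had 162, 146 and 123, below all libraries that received LPS. With LPS alone it was higher than in control by 1.73 ± 0.18 (95% interval 1.33 to 2.14; 3.33-fold; limma, adjusted p = 1.8e-05), in all 16 other settings too (1.03 to 1.86). With LPS and NCT503 it was higher than in control by 1.26 ± 0.20 (limma, adjusted p = 0.00064). The difference between LPS with NCT503 and LPS alone was -0.47 ± 0.21 (95% interval -0.92 to -0.02), which did not pass (limma, adjusted p = 0.103) and LPS with NCT503 library 1 lay above LPS library 2. Rfxap, another subunit of the same complex, had 208, 262 and 223 normalized reads with LPS and NCT503, 210, 267 and 235 with LPS and 220, 272 and 292 in control. The 3 groups overlapped, and none of the 3 comparisons passed (limma, adjusted p = 0.909 for LPS with NCT503 against LPS, 0.598 for LPS against control and 0.492 for LPS with NCT503 against control). Rfx5 therefore had 1.54 ± 0.462 reads per Rfxap read with LPS and NCT503, 2.06 ± 0.515 with LPS and 0.565 ± 0.159 in control (SD, n = 3 each).

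**Figure D1:**
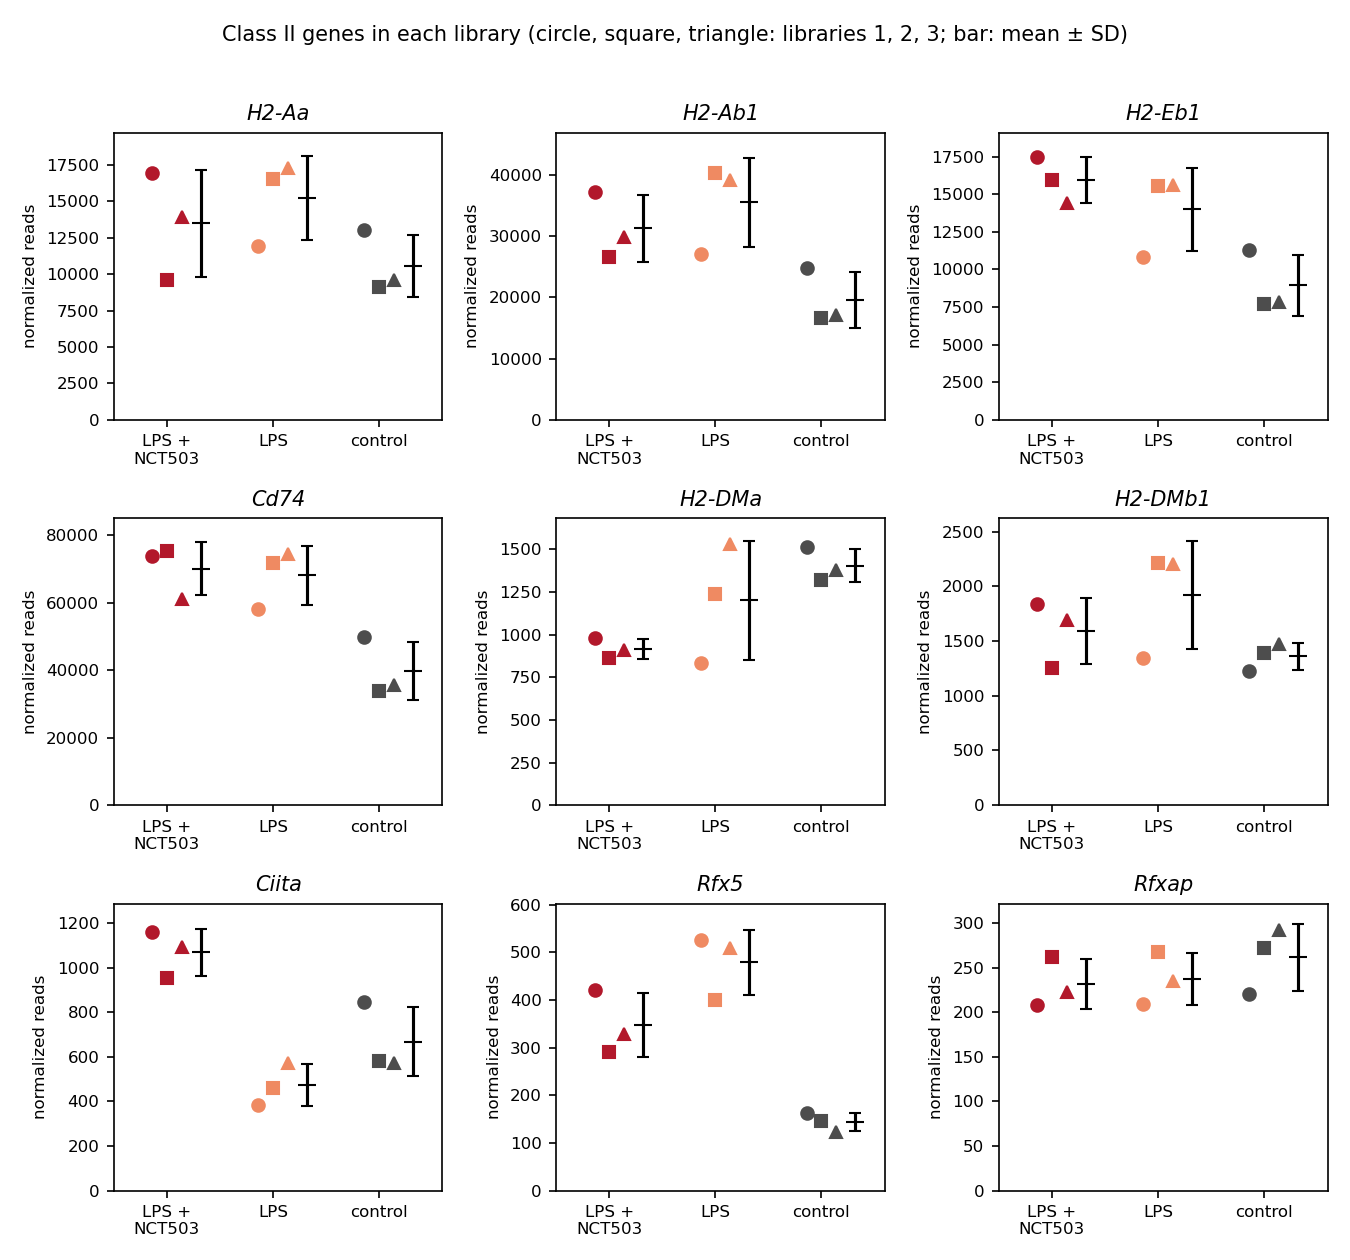
Normalized reads (linear axes from 0) of the 9 class II genes in each library, with the group mean ± SD (n = 3) beside the points. The Ciita panel has all LPS with NCT503 libraries at 953 or more and all LPS libraries at 570 or less, while the chain panels have overlapping LPS with NCT503 and LPS groups.

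The class II chains and Cd74 were far more abundant than their regulators. Per kilobase of gene length, Cd74 averaged 49702 normalized reads with LPS and NCT503, 48293 with LPS and 28166 in control, the highest of the 9 genes in each group. H2-Ab1 (19091, 21716 and 11914 in the same order of groups), H2-Eb1 (13473, 11809 and 7552) and H2-Aa (7192, 8128 and 5638) followed. The DM genes came next, with 1074, 1293 and 917 for H2-DMb1 and 559, 733 and 857 for H2-DMa. Ciita had 203, 89.9 and 127, Rfxap 103, 106 and 117, and Rfx5 63.1, 87.2 and 26.1. The order of the first 4 genes was the same in the 3 group means, whereas Ciita stood above Rfxap and Rfx5 with LPS and NCT503 and in control, and below Rfxap with LPS alone. Library values per kilobase overlapped between H2-Eb1 and H2-Aa and between the DM genes in the LPS and control groups, between Ciita, Rfxap and Rfx5 in the LPS group, and between Ciita and Rfxap in control, while the other neighbours in this order were apart. Together the 9 genes took 0.602 ± 0.0452% of reads with LPS and NCT503, 0.513 ± 0.0512% with LPS and 0.511 ± 0.153% in control (SD, n = 3 each).

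With LPS and NCT503 against LPS alone, none of these effector genes passed. H2-Ab1 had 37265, 26635 and 29853 normalized reads with LPS and NCT503, against 27154, 40275 and 39219 with LPS. H2-Aa had 16916, 9598 and 13919 with LPS and NCT503, against 11941, 16498 and 17254 with LPS. H2-Eb1 had 17469, 15949 and 14438 with LPS and NCT503, against 10787, 15538 and 15620 with LPS. In all 3 genes the groups overlapped, and LPS library 1 was the lowest of its group. Cd74 had 73707, 75368 and 61166 with LPS and NCT503, against 58166, 71618 and 74496 with LPS. The log2 fold changes were 0.21 ± 0.19 for H2-Eb1 (95% interval -0.21 to 0.63), 0.05 ± 0.17 for Cd74 (-0.34 to 0.43), -0.18 ± 0.21 for H2-Ab1 (-0.63 to 0.28) and -0.19 ± 0.23 for H2-Aa (-0.70 to 0.31), with limma's adjusted p between 0.435 and 0.864. These intervals include 0 and leave room for differences of up to 0.70 in size, so the values do not show that the chains were equal in both groups. Of the 9 genes, 1 passed as higher and 0 as lower in this comparison, where 32.6% of all 19795 genes tested passed, 16.9% as higher and 15.7% as lower. At an unadjusted p under 0.05, limma had 1 higher and 1 lower (Rfx5), while edgeR and DESeq2 each called 1 higher and 0 lower after adjustment. H2-Eb1 also passed as higher with scaling by totals (0.45, limma, adjusted p = 0.0342) or quantile normalization (0.57, adjusted p = 0.0114). The median log2 fold change of the 9 genes was -0.18, beside 0.08 over all genes tested. Only Ciita had groups without overlap, against 22.9% of all genes higher and 22.0% lower without overlap.

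LPS alone was set against control to see what stimulation did to the same genes. On the authors' scaling 5 of the 9 genes passed as higher, Rfx5, H2-Ab1, Cd74, H2-Eb1 and H2-Aa, and 0 passed as lower, where 41.8% of 19975 genes passed, 20.5% as higher and 21.4% as lower. At an unadjusted p under 0.05, limma had 6 higher and 1 lower, while edgeR called 4 and 1 and DESeq2 6 and 0 after adjustment. The control libraries had 24781, 16640 and 17091 normalized reads of H2-Ab1, all below the LPS libraries given above, and 49702, 33893 and 35548 of Cd74, again all below. They had 11293, 7701 and 7829 of H2-Eb1 and 13029, 9100 and 9569 of H2-Aa, with control library 1 within the range of the LPS libraries for both. The log2 fold changes were 0.87 ± 0.21 for H2-Ab1 (limma, adjusted p = 0.00539), 0.80 ± 0.19 for Cd74 (0.00506), 0.65 ± 0.20 for H2-Eb1 (0.0219) and 0.53 ± 0.19 for H2-Aa (0.0450). The median of the 9 genes was 0.53, beside -0.05 over all genes, and 3 genes were without overlap as higher and 1, Ciita, as lower, where 24.4% and 26.5% of all genes were.

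The rise of the chains and Cd74 depended on how the libraries were scaled. When each library was scaled by its total instead, which shifted the median of all genes by -0.63, H2-Ab1 differed between LPS and control by 0.17, Cd74 by 0.09, H2-Eb1 by -0.05 and H2-Aa by -0.17, and none of them passed. Under quantile normalization, which shifted that median by only -0.05, the values were -0.24, -0.12, -0.35 and -0.50, and none passed. The chains and Cd74 were thus above the median of all genes with scaling by totals (-0.68) and below it with quantile normalization (-0.10). Scaling by totals turned the 4089 higher and 4266 lower calls over all genes into 2092 and 8537. Rfx5 passed as higher under both. As a share of all reads, the 3 chains took 0.242 ± 0.0319% with LPS and 0.242 ± 0.0753% in control, and Cd74 0.255 ± 0.0185% and 0.246 ± 0.0751% (SD, n = 3 each). Such a share is the scaling by totals in other units, so it is not a separate check. H2-Ab1 and Cd74 were each called in 14 of the 16 other settings, H2-Eb1 in 10 and H2-Aa in 6. Under TMM scaling, H2-Ab1 (0.77, limma, adjusted p = 0.0106), Cd74 (0.69, adjusted p = 0.00998) and H2-Eb1 (0.55, adjusted p = 0.0453) passed. The call of H2-Aa was also lost under TMM scaling (0.43, limma, adjusted p = 0.0935), in edgeR (0.47, adjusted p = 0.0638), with a pseudocount of 0.1 (0.53, limma, adjusted p = 0.0557) and with all 9 libraries in one fit (0.53, limma, adjusted p = 0.0767). The calls of H2-Eb1 and H2-Aa were lost without LPS library 2 (log2 fold changes 0.57 and 0.47), LPS library 3 (0.56 and 0.43), control library 2 (0.56 and 0.44) or control library 3 (0.57 and 0.47). Control library 1 was the highest control library for the 3 chains, Cd74 and Ciita, and its summed reads of 6 stromal marker genes were 25366 normalized reads, against 5535 and 8943 in control libraries 2 and 3. Whether these move together through that library's make-up was not tested.

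**Figure D2:**
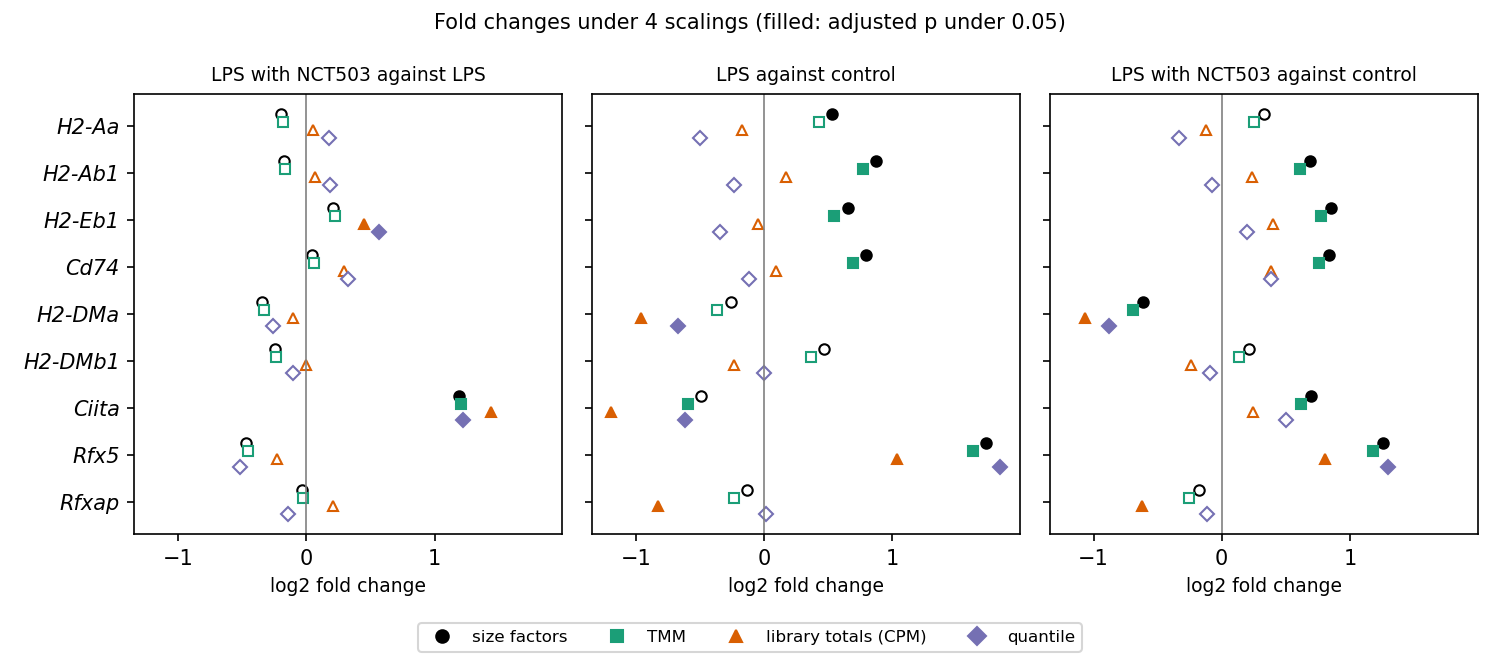
Log2 fold change of each of the 9 genes in the 3 comparisons under 4 scalings of the libraries: the size factors, TMM, library totals (CPM) and quantile normalization. Ciita stays at 1.19 or more between LPS with NCT503 and LPS under each, while the chains and Cd74 lie at 0.17 or lower between LPS and control under CPM and quantile normalization.

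LPS with NCT503 was compared with control on the reads of both tables joined. Of the 9 genes, 5 passed as higher (Rfx5, H2-Eb1, Cd74, Ciita and H2-Ab1) and 1 as lower (H2-DMa), all 6 without overlap between the groups, where 40.4% of 19930 genes passed, 20.7% as higher and 19.7% as lower, and 25.3% and 24.9% of all genes were without overlap. The log2 fold changes were 0.85 ± 0.18 for H2-Eb1 (limma, adjusted p = 0.0033), 0.83 ± 0.18 for Cd74 (0.00386) and 0.69 ± 0.19 for H2-Ab1 (0.0164), while H2-Aa had 0.33 ± 0.22 and did not pass (0.266). The median of the 9 genes was 0.69, beside 0.05 over all genes. With libraries scaled by totals, which shifted the median of all genes by -0.43 and turned 4134 higher and 3927 lower calls into 2458 and 6585, Rfx5 alone passed as higher and H2-Eb1, Cd74 and H2-Ab1 had 0.40, 0.38 and 0.24. Under quantile normalization these 3 had 0.20, 0.39 and -0.07, and none of them passed. The call of H2-Ab1 was lost without LPS with NCT503 library 1 (0.56), control library 2 (0.59) or control library 3 (0.61). Without LPS with NCT503 library 2, in contrast, H2-Aa passed (0.56, limma, adjusted p = 0.0265), as did H2-DMb1 (0.38, adjusted p = 0.0416). The comparisons share libraries, so their results are not independent of each other.

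The products of the DM genes edit the peptides that class II molecules carry. H2-DMa had 980, 860 and 912 normalized reads with LPS and NCT503, 836, 1238 and 1533 with LPS and 1513, 1322 and 1382 in control. All libraries with LPS and NCT503 lay below all control libraries, and the LPS libraries spread over the range of both. H2-DMa was lower with LPS and NCT503 than in control, with a log2 fold change of -0.61 ± 0.14 (limma, adjusted p = 0.00617), and it passed as lower in all 16 other settings (-1.07 to -0.56). Against LPS alone it had -0.35 ± 0.22 (95% interval -0.83 to 0.14; adjusted p = 0.259), which passed without LPS library 1 (-0.59, adjusted p = 0.0323), and LPS against control was -0.26 ± 0.20 (adjusted p = 0.334), which passed as lower with scaling by totals (-0.96, limma, adjusted p = 0.00307) and under quantile normalization (-0.67, adjusted p = 0.0136). H2-DMb1 had 1839, 1258 and 1688 normalized reads with LPS and NCT503, 1348, 2211 and 2200 with LPS and 1226, 1388 and 1470 in control. It passed in no comparison, with 0.47 ± 0.20 for LPS against control (limma, adjusted p = 0.0802), but that difference passed in 3 of the 16 other settings, among them limma without LPS library 1 (0.70, adjusted p = 0.00305) and DESeq2 (0.50, adjusted p = 0.0474). In the authors' deposited table that difference was 0.50 with an adjusted p of 0.0485.

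**Figure D3:**
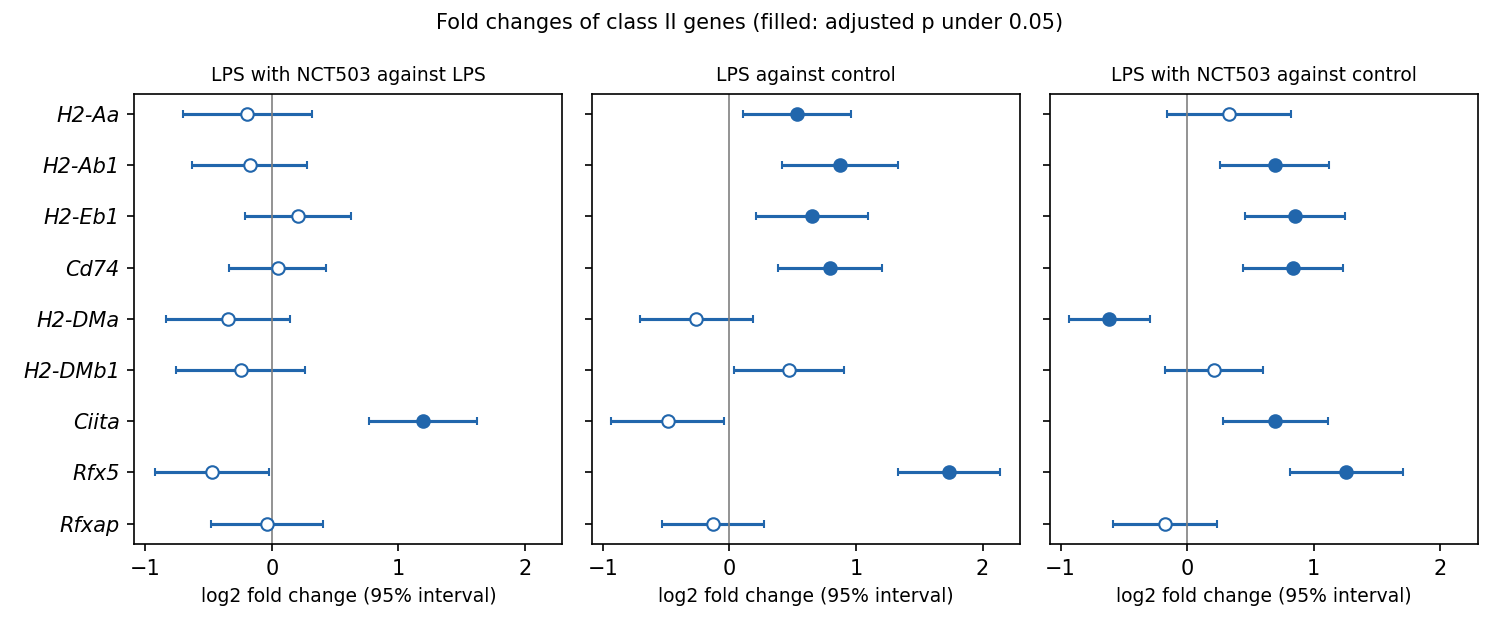
Log2 fold change with its 95% interval for the 9 genes in the 3 comparisons, with filled symbols for an adjusted p under 0.05 (limma). Ciita is the only filled symbol for LPS with NCT503 against LPS, and H2-DMa the only filled symbol below 0, for LPS with NCT503 against control.

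Ratios of reads between genes of a library do not depend on the size factors or totals by which libraries are scaled. Beside such ratios, the shares of all reads given above were taken, and these are scaling by totals. Together 10 were computed, chosen after the levels had been seen. Each was compared over the 3 pairs of groups by an exact two-sided permutation test, which with 3 libraries a group cannot give a p below 0.1. Ciita had 7.99, 7.47 and 9.16 reads per 1000 reads of the 3 chains and Cd74 with LPS and NCT503, 3.55, 3.21 and 3.89 with LPS, and 8.58, 8.66 and 8.18 in control. The LPS libraries were the lowest in this ratio, and the other 2 groups overlapped. The means were 8.21 ± 0.863 with LPS and NCT503, 3.55 ± 0.340 with LPS and 8.47 ± 0.258 in control (SD, n = 3 each), with an exact permutation p of 0.1 for LPS with NCT503 against LPS and for LPS against control, and 0.6 for LPS with NCT503 against control. Ciita reads per Rfx5 read were 3.12 ± 0.315 with LPS and NCT503, 1.00 ± 0.236 with LPS and 4.63 ± 0.616 in control, without overlap between any 2 groups. H2-DMa reads per H2-DMb1 read were 0.586 ± 0.0852 with LPS and NCT503, 0.626 ± 0.0684 with LPS and 1.04 ± 0.166 in control, so that both groups that received LPS lay below control (exact permutation p = 0.1 for each).

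The 2 beta chains were also set against each other. H2-Eb1 had 0.469, 0.599 and 0.484 reads per H2-Ab1 read with LPS and NCT503, 0.397, 0.386 and 0.398 with LPS, and 0.456, 0.463 and 0.458 in control. The LPS and control libraries varied little (SD 0.00693 and 0.0036) and the 3 groups did not overlap (exact permutation p = 0.1 for each pair). The highest value was that of LPS with NCT503 library 2, which also had the fewest reads of the 3 chains per Cd74 read (0.692, against 0.972 and 0.952 in its group mates, 0.858 to 1.01 with LPS and 0.970 to 0.988 in control). That library had 9371 normalized reads of Itgax, a dendritic cell and macrophage integrin, where the other 8 had 434 to 713, and 391 of H2-DMb2, where its group mates had 20.4 and 26.0. Adjusted over the 30 ratio tests by Benjamini-Hochberg, the smallest p was 0.188.

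**Figure D4:**
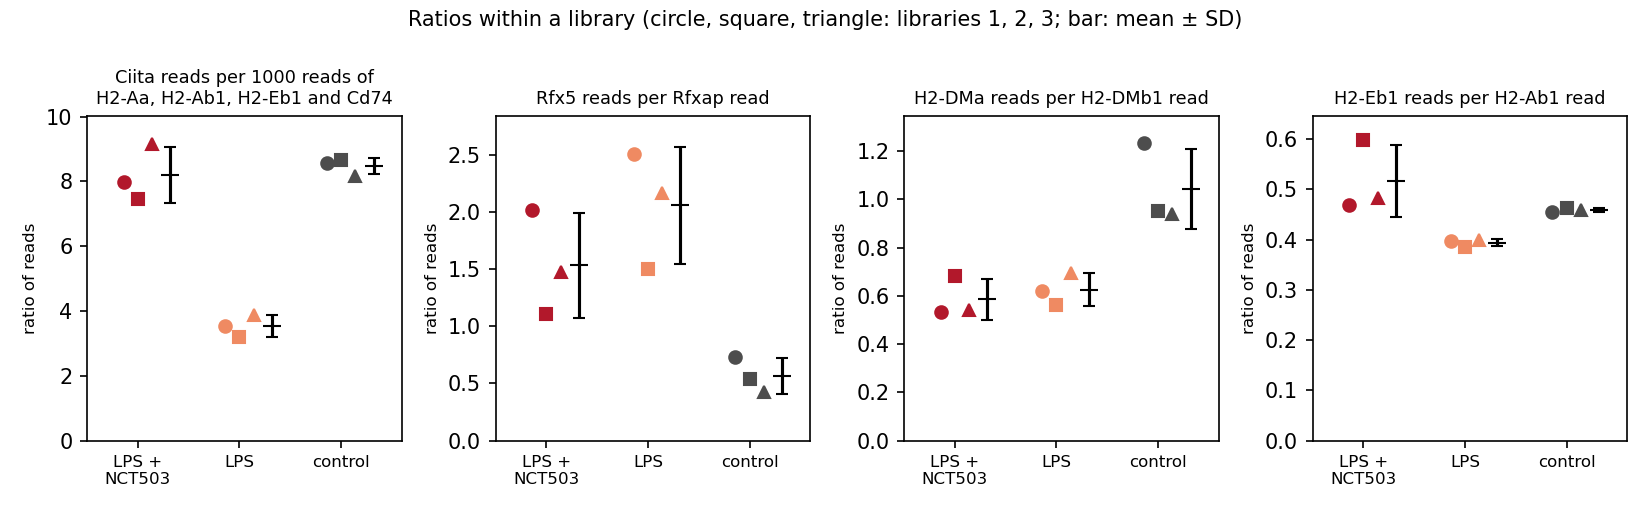
Ratios of reads within a library in 4 panels, on linear axes from 0, with libraries 1, 2 and 3 of each group as circle, square and triangle and the mean ± SD beside them. Ciita per 1000 reads of the chains and Cd74 is 3.21 to 3.89 with LPS and 7.47 or more in every other library.

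The other class II chain genes had few reads. H2-Oa, which with H2-Ob forms an inhibitor of DM, had 80.5, 316 and 95.2 normalized reads with LPS and NCT503, 63.4, 124 and 129 with LPS and 32.8, 25.9 and 33.7 in control. It was higher than in control with LPS and NCT503 (log2 fold change 2.10, limma, adjusted p = 0.00433) and with LPS alone (1.69, adjusted p = 0.00105). H2-Ob, with 3 to 21 reads a library, was lower with LPS and NCT503 than with LPS (-1.54, limma, adjusted p = 0.0341; without LPS with NCT503 library 2, -0.96 and adjusted p = 0.0605). It was higher with LPS than in control (1.14, adjusted p = 0.0227; without control library 1, 0.92 and adjusted p = 0.0587). H2-DMb2 was lower with LPS than in control (-0.94, limma, adjusted p = 0.0147). H2-Eb2, with 5 to 22 reads a library, was higher with LPS and NCT503 than in control (1.72, limma, adjusted p = 0.00854). Of the 5 genes in this list 4 were tested, and 0 passed as higher and 1 as lower for LPS with NCT503 against LPS, 2 and 1 for LPS against control, and 2 and 0 for LPS with NCT503 against control. The shares of all genes that passed as higher and lower were 16.9% and 15.7%, 20.5% and 21.4%, and 20.7% and 19.7% in the same order. The 0 counts of this list were the same at an unadjusted p under 0.05, in edgeR and in DESeq2, although DESeq2 did not call H2-Ob between LPS with NCT503 and LPS. Without LPS with NCT503 library 2, however, LPS with NCT503 against control gave 2 higher and 1 lower.

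The factors that act beside Rfx5 and Rfxap at class II promoters, or at the promoters of Ciita itself, changed in both directions. Of 16 such genes, 2 passed as higher and 7 as lower with LPS and NCT503 against LPS, with a median of -0.53 beside 0.08 over all genes. Of all genes tested, 16.9% passed as higher and 15.7% as lower. Irf8 and Spi1 (PU.1), myeloid factors that act at the Ciita promoter used in myeloid cells (the counts per gene do not separate the promoters), were lower, with log2 fold changes of -1.86 ± 0.20 and -1.83 ± 0.21 (limma, adjusted p = 3.6e-05 and 6.2e-05). Usf1 and Irf2, which act at the interferon-gamma-responsive Ciita promoter, were lower too, with -1.68 ± 0.17 and -1.51 ± 0.20 (limma, adjusted p = 2.4e-05 and 0.00017). Irf8 had 6414, 6676 and 6311 normalized reads with LPS and NCT503, against 18032, 24180 and 29821 with LPS and 6944, 7765 and 8455 in control. Spi1 had 14706, 18549 and 13266 with LPS and NCT503, against 44558, 70649 and 52026 with LPS and 11623, 15110 and 16694 in control. Both genes had LPS libraries above all others, whereas the LPS libraries of Ciita lay below all others. Irf1, a mediator of interferon-gamma induction, passed as lower as well, with 0.615 times the level of LPS alone (limma, adjusted p = 0.0448), as did Ep300, a histone acetyltransferase (0.648 times, limma, adjusted p = 0.0127). Zxdc, which in human cells binds CIITA and assists it, and Prdm1, a repressor of Ciita, passed as higher (0.64 and 0.62). With scaling by totals, which shifted the median of all genes by 0.23 and turned 3351 higher and 3098 lower calls into 4408 and 2144, 2 of the 16 passed as higher and 5 as lower.

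LPS against control gave 7 of these 16 genes higher and 0 lower, with a median of 0.39 beside -0.05, and 6 higher and 5 lower with scaling by totals, where the median was -0.31. On the authors' scaling, 20.5% of all genes passed as higher and 21.4% as lower. At an unadjusted p under 0.05 limma had 9 higher and 0 lower, and edgeR and DESeq2 each called 7 and 0. Irf1 had the largest value, 3.94 ± 0.15 (limma, adjusted p = 4.5e-09), with 20122 or more normalized reads in each LPS library and 1506 or fewer in each control library. Spi1, Prdm1, Irf8, Irf2 and Usf1, which also passed, had 1.94, 1.66, 1.62, 1.19 and 0.83. Against control, LPS with NCT503 gave 6 higher and 3 lower, where 20.7% of all genes passed as higher and 19.7% as lower. The higher ones included Irf1 (3.24), Prdm1 (2.27) and the NF-Y subunits Nfya (0.53) and Nfyb (0.64). The lower ones were Rfxank, the remaining RFX subunit (-0.96, adjusted p = 0.0101), Usf1 (-0.86) and Ep300 (-0.52). With scaling by totals the same comparison gave 2 higher and 6 lower. Rfxank did not pass for LPS with NCT503 against LPS (-0.53, adjusted p = 0.182) or for LPS against control (-0.42, adjusted p = 0.154).

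**Figure D5:**
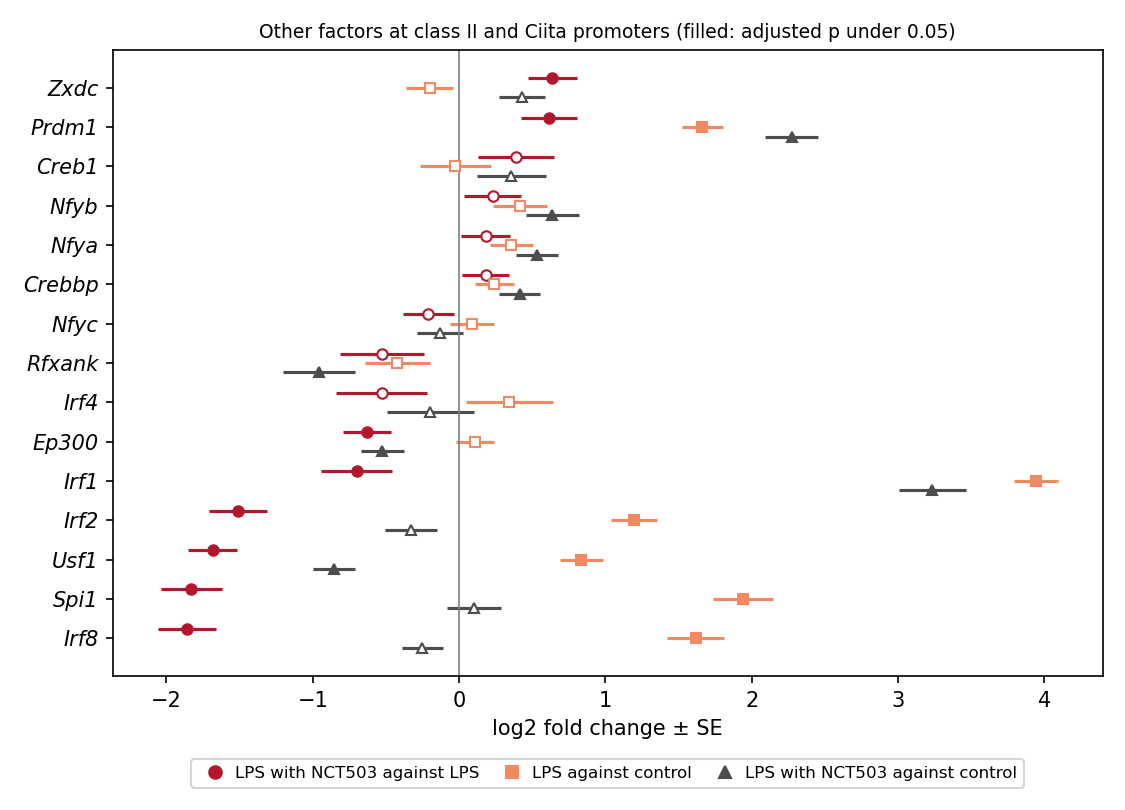
Log2 fold change ± SE of the other factors of class II and Ciita promoters that are reported by name in the 3 comparisons, ordered by the change between LPS with NCT503 and LPS, with filled symbols for an adjusted p under 0.05 (limma). Irf8, Spi1, Usf1 and Irf2 lie at -1.51 or lower for LPS with NCT503 against LPS and at 0.83 or higher for LPS against control.

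Interferon-gamma itself was measured in the same libraries. Ifng had 239, 46.8 and 122 normalized reads with LPS and NCT503, 771, 683 and 1604 with LPS and 2.73, 0.700 and 0.801 in control. It was lower with LPS and NCT503 than with LPS, with a log2 fold change of -3.07 ± 0.52 (limma, adjusted p = 0.00142), while Ciita was higher in the same comparison. Ifng was listed here with the markers of T and natural killer cells, of which 0 of 8 passed as higher and 6 as lower with LPS and NCT503 against LPS, and their summed level was 96.8 to 355 normalized reads with LPS and NCT503, 941 to 1960 with LPS and 147 to 249 in control, mostly Ifng in the LPS libraries. At an unadjusted p under 0.05 limma had 1 higher and 7 lower, while edgeR called 0 and 4 and DESeq2 0 and 5. The counts were 1 higher and 3 lower with scaling by totals, and 0 and 3 without LPS with NCT503 library 2. In the main test of this comparison, 16.9% of all genes passed as higher and 15.7% as lower.

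Genes that act on class II molecules after synthesis were described by 2 lists. Their counts stand beside shares over all genes of 16.9% higher and 15.7% lower for LPS with NCT503 against LPS. These shares were 20.5% and 21.4% for LPS against control, and 20.7% and 19.7% for LPS with NCT503 against control. Of 10 endosomal enzymes and their inhibitor, 0 passed as higher and 1 as lower with LPS and NCT503 against LPS, namely Cst3, the cathepsin inhibitor cystatin C (-0.96, limma, adjusted p = 0.00205). Ctss, the protease that trims Cd74, had -0.45 and did not pass (adjusted p = 0.0534). Higher genes numbered 1 at an unadjusted p under 0.05, 1 in edgeR, 0 in DESeq2 and 2 with scaling by totals. Against control, LPS alone gave 2 higher, the intramembrane protease Sppl2a that clears the last Cd74 fragment (1.53) and Ctsz (0.86), and 1 lower, the lysosomal thiol reductase Ifi30 (-0.85, adjusted p = 0.00138), but 1 higher and 7 lower with scaling by totals or quantile normalization. LPS with NCT503 against control gave 2 higher (Sppl2a 0.89 and Ctsz 0.73) and 3 lower (Cst3 -0.61, Ctsd -0.67 and Ctsh -0.47), but 0 higher and 6 lower with scaling by totals.

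In the list of turnover and surface partners 6 genes had a row. March1, a ubiquitin ligase that removes class II from the surface, and Cd83, which opposes it, were both higher with LPS than in control (1.70 and 1.71, limma, adjusted p = 2.2e-05 and 2.5e-06) and with LPS and NCT503 than in control (1.37 and 1.32). Neither passed between LPS with NCT503 and LPS (-0.32, adjusted p = 0.337, and -0.38, adjusted p = 0.206). March1 had 3660, 1969 and 3028 normalized reads with LPS and NCT503, 4326, 2815 and 3521 with LPS and 1199, 1169 and 897 in control. Cd82, a tetraspanin found with class II in endosomes, and Cd4, the T cell receptor partner that binds class II, passed as higher with LPS and NCT503 against LPS (0.64 and 1.08), giving 2 higher and 0 lower. LPS against control gave 3 higher (with Cd82, 1.42) and 1 lower (Cd4, -1.16), and LPS with NCT503 against control 3 higher (with Cd82, 2.06) and 0 lower, or 3 and 2 with scaling by totals. Both counts of 0 lower were also 0 at an unadjusted p under 0.05, in edgeR and in DESeq2.

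Markers of the cells that a marrow culture can hold moved between the groups as well. Over all genes, 16.9% passed as higher and 15.7% as lower with LPS and NCT503 against LPS. The shares were 20.5% and 21.4% with LPS against control, and 20.7% and 19.7% with LPS and NCT503 against control. Of the 8 macrophage marker genes 0 passed (limma, and also at an unadjusted p under 0.05, in edgeR and in DESeq2) as higher and 4 as lower with LPS and NCT503 against LPS, 3 and 1 with LPS against control (1 and 5 with scaling by totals), and 0 and 4 with LPS and NCT503 against control, and their summed level was 191639 to 243639 normalized reads with LPS and NCT503, 349685 to 384924 with LPS and 274141 to 349778 in control. The largest part of the macrophage sums was Lyz2, which averaged 107188 with LPS and NCT503, 232725 with LPS and 206169 in control. Beside the 4 genes that passed as lower, Csf1r (38411 with LPS and NCT503, 36258 with LPS) and Cd68 (23195 and 22770) did not pass between these groups. For the dendritic cell list the sums were 943, 9615 and 938 with LPS and NCT503, 1395 to 1533 with LPS and 647 to 750 in control, with 0 higher and 1 lower, 3 and 1, and 3 and 1 in the 3 comparisons, in the same order. In LPS with NCT503 library 2 nearly all of this sum was Itgax. Ccr7, Xcr1 and Zbtb46 were the higher ones with LPS against control (3.02, 2.82 and 1.90) and with LPS and NCT503 against control (1.38, 4.03 and 2.07), and Ccr7 was the lower one with LPS and NCT503 against LPS (-1.63). Batf3 was the lower one against control, with LPS alone (-1.02, limma, adjusted p = 0.0279) and with LPS and NCT503 (-1.83, limma, adjusted p = 0.00019). For LPS against control, 0 of this list were lower without control library 1 or under quantile normalization. The B cell sums were 32.6 to 71.4 with LPS and NCT503, 27.3 to 73.4 with LPS and 93.1 to 131 in control, with 0 higher and 1 lower, 1 and 1, and 1 and 2 of 5 genes tested. The higher one was Pax5, which had 4, 10 and 19 reads with LPS and NCT503, 5, 6 and 13 with LPS and 0 in each control library. The lower ones were Cd79a with LPS and NCT503 against LPS (-2.15) and Cd79b with LPS against control (-2.85). Both were lower with LPS and NCT503 against control (-2.14 and -3.18). Cd79a averaged 6.50 normalized reads or fewer in each group. The granulocyte sums were 122 to 307 with LPS and NCT503, 1358 to 2355 with LPS and 2706 to 3974 in control, with 0 higher and 6 lower, 2 and 3, and 0 and 5 of 6 genes tested. The stromal sums were 16106 to 41302, 16144 to 34982 and 5535 to 25366 in the same order of groups, with 0 higher and 2 lower, 3 and 0, and 1 and 1 of 6 genes tested. Without control library 1 the stromal counts were 6 and 0 for LPS against control and 5 and 1 for LPS with NCT503 against control. The part of these markers in the class II values was not tested.

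The genes whose pattern over the 9 libraries was most like that of a class II gene were sought among 9539 genes averaging 100 normalized reads or more in some group. Genes with provisional names and pseudogenes were left out of these. Likeness was Pearson's r of log2(normalized reads + 1), given as a description. For Ciita they were Cd109 (0.989), Epb41l3 (0.971) and Dnah2 (0.964). Cd109 averaged 257 normalized reads with LPS and NCT503, 42.2 with LPS and 83.9 in control. For Rfx5 they were Gbp2 (0.995), Usp42 (0.993) and Crkl (0.991), and for H2-Ab1 Flt4 (0.945), Micu2 (0.939) and Kynu (0.932). Among the 9 genes themselves Cd74, H2-Eb1 and H2-Aa were in places 5, 11 and 16 by likeness to H2-Ab1 (r of 0.92, 0.91 and 0.91), while Ciita was in place 4420 (r of 0.12). The 9 libraries share their group means, so such values follow mainly from the order of the 3 groups.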

How the data were processed

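RNA was sequenced from 9 libraries of mouse bone-marrow-derived macrophages, 3 each of LPS with NCT503, LPS and control. Per the submitters' processing notes, TopHat2 and mm10 were used; the sources used here name no counter, annotation, strand setting or differential test. The authors deposited 2 tables, LPS with NCT503 against LPS (22620 genes) and LPS against control (23001 genes), each with signal per library, that is reads divided by a size factor, per the file headers. Beside it stand the authors' log2 fold change and the authors' p-value, raw and adjusted. In every library column 100% of the values were whole multiples of 1 read (tolerance 0.001), and the LPS libraries gave the same reads in 100% of the values of 21434 genes listed in both tables.

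The main test was limma-trend with robust empirical Bayes (limma 3.58.1, R 4.3.3). It was run on log2(normalized reads + 1), a scale that understates changes of low genes, for genes averaging 1 normalized read or more in either group, with Benjamini-Hochberg adjustment over all genes tested and a threshold of 0.05. The deposited size factors were used for the comparisons of the deposited tables, and DESeq2's median-of-ratios factors over the joined libraries for LPS with NCT503 against control and for all levels. The count test of edgeR 4.0.16 (with TMM scaling), run on the recovered reads as an alternative, called 6098 genes for LPS with NCT503 against LPS, 7769 for LPS against control and 7548 for LPS with NCT503 against control, and DESeq2 1.42.0 called 6225, 7813 and 7557. The other alternatives were TMM, library totals (CPM), quantile normalization, a pseudocount of 0.1, no filter, a minimum mean of 10, all 9 libraries in 1 fit, a replicate block and leaving out each library, 16 settings with edgeR and DESeq2. The test was run on simulated reads, drawn independently with 1 common setting of spread. It called 81 to 92% of 100 planted log2 changes of 1 in a comparison, and 8 to 11 unchanged genes. Changes were planted only in genes above a minimum mean, and the spread was not set from the 9 genes. These shares therefore do not tell how often a change of that size in the 9 genes, or in genes with few reads, would be called. No simulated library stood apart from its group, so the check does not cover that feature of the data. The 9 genes and the other lists were chosen with earlier results of these data known; from each other list up to 4 genes with the smallest adjusted p per comparison are named, all of the other class II chains, and further genes where a count needed them. Some genes of these lists are counted but not reported here by name. The ratios, the promoter pattern and the libraries singled out were chosen after their values were seen.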

Additional observations from a re-analysis of the deposited data

How the results depend on the processing

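Of the log2 fold changes of the 9 genes under 16 other settings, 129 kept their direction and side of the threshold, 4 passed newly and 11 changed sign for LPS with NCT503 against LPS. For LPS against control 111 were unchanged in this sense, 11 passed newly, 14 no longer passed and 8 changed sign. For LPS with NCT503 against control the numbers were 123, 3, 13 and 5. Genes higher with LPS and NCT503 against LPS numbered 2 with library totals (CPM) or quantile normalization in place of 1, and leaving out a library gave 0 to 1 lower. For LPS against control, 1 was higher under CPM or quantile normalization in place of 5, 3 to 6 without 1 library, and the number lower was 3 under CPM, 2 under quantile normalization and 1 under TMM or edgeR in place of 0. For LPS with NCT503 against control, 1 was higher under CPM or quantile normalization in place of 5, 3 to 7 without 1 library, and 2 lower under CPM in place of 1. The cause of these changes was not tested.

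Signs changed as follows. For LPS with NCT503 against LPS, CPM gave 0.068 for H2-Ab1, 0.050 for H2-Aa and 0.21 for Rfxap, quantile normalization 0.19 for H2-Ab1 and 0.18 for H2-Aa, and edgeR 0.0030 for Rfxap. Leaving out 1 library gave -0.13 to 0.059 for Rfxap, -0.38 to 0.034 for H2-Aa and -0.069 to 0.14 for Cd74. For LPS against control, CPM gave -0.23 for H2-DMb1, -0.050 for H2-Eb1 and -0.17 for H2-Aa, and quantile normalization -0.35 for H2-Eb1, -0.24 for H2-Ab1, -0.50 for H2-Aa, -0.12 for Cd74 and 0.016 for Rfxap. For LPS with NCT503 against control, CPM gave -0.24 for H2-DMb1 and -0.12 for H2-Aa, and quantile normalization -0.093 for H2-DMb1, -0.072 for H2-Ab1 and -0.33 for H2-Aa.

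The groups share replicate numbers in the labels, but same-numbered libraries did not deviate together in every pair. Their correlations were 0.20, 0.18 and -0.04 for LPS with NCT503 against LPS, and -0.10 to 0.11 in the other comparisons. Libraries with unlike numbers had -0.26 to 0.19. The labels name no pairing, and the numbers were not used as pairs in the main test. With the replicate number as a block, 1 gene was lower for LPS with NCT503 against LPS (Rfx5, -0.47, adjusted p = 0.0216) and 1 for LPS against control (Ciita, -0.49, adjusted p = 0.00401), in place of 0 each, and H2-DMb1 passed as higher for LPS against control (0.47, adjusted p = 0.00215). Over all genes, the block turned 3351 higher and 3098 lower calls into 4251 and 3935 for LPS with NCT503 against LPS. For LPS against control, 4089 and 4266 became 4786 and 4928. For LPS with NCT503 against control, 4134 and 3927 became 4128 and 3970. Whether same-numbered libraries share an origin was not tested.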
